A study of Mus musculus and Callithrix jacchus with 22 samples.

Results

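Layer IV neurons were described here from single-cell assay for transposase-accessible chromatin (scATAC-seq) profiles of mouse and marmoset neocortex. Members were all cells that the authors' annotation named layer IV: 2768 of 19145 mouse cells and 558 of 15919 marmoset cells, together 3326 of 35064 cells in the 2 tables. In scATAC-seq a transposase cuts and tags open DNA, so that the reads of a cell mark its accessible regions. The mice were wild-type C57BL/6 animals, with 4 libraries at each postnatal age in days, P1, P7 and P21, from somatosensory and motor cortex combined. The marmosets, small New World monkeys, were wild type, with 5 adult libraries (2 labelled Y7 and 3 labelled Y8) and 5 newborn libraries (Day0). The labels name somatosensory cortex for the marmoset, whereas the study's methods name motor cortex as well. None of these animals carried a treatment, a transgene or an altered allele.

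Layer IV is the granular layer of the neocortex and the main entry point for sensory signals from the thalamus. Its excitatory neurons, spiny stellate and star pyramidal cells, send axons mostly within the local circuit, in particular to the layers above. The layer is thick in primary sensory areas and thin in motor cortex, so the dissected area bears on its share. Other pyramidal neurons named in the data project further: callosal projection neurons (CPN) to the other hemisphere, subcerebral projection neurons (ScPN) to brainstem and spinal cord, and corticothalamic projection neurons (CthPN) back to the thalamus. RORB is the transcription factor most used to mark layer IV. The tables held no gene-level values, so the annotated name could not be checked against the Rorb gene, and cells are called layer IV as the authors named them. ExNeuron, a name used in marmoset only, is given below as the annotation spells it.

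The name followed clusters of the authors' analysis, which had been split by age before they were named, so that each age has its own cluster by construction. All 1627 layer IV cells of P21 lay in cluster 2 and all 1141 of P7 in cluster 4 of the mouse table. In the marmoset table, all 110 adult cells lay in cluster 41 and all 448 Day0 cells in cluster 14. These 4 clusters held layer IV cells and no other named type, and no other cluster carried the name.

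Before the comparisons, 3 features of the libraries need to be set out. First, mouse libraries came in 2 series at each age, 2 libraries with numbered titles (called numbered below) and 2 with titles starting with Pool. Second, Day0 libraries 1 and 2 stood apart from Day0 libraries 3, 4 and 5 in their neuronal types, as described below. Last, cell barcodes recurred between libraries in 18 of 66 mouse library pairs, with 109 to 618 barcodes in common, and 1300 layer IV cells carried such a barcode. In combinatorial indexing, well indexes are reused between libraries. No cell with a recurring barcode had the same reads and peaks in both libraries. Of these barcodes, 121 were layer IV in both libraries, against 113 if the names were independent. In marmoset all 45 library pairs had 1 to 9 barcodes in common. Within groups, 9 of 26 library pairs did not differ in their counts of cell types beyond sampling noise (chi-square p above 0.05). Using each library once and the best agreeing pair first, these gave 5 pairs (Y8 2 and 3, P21 Pool 1 and 2, P7 numbered 1 and 2, Day0 1 and 2, and Day0 3 and 4). No cell was found in both libraries of a pair. For the mouse pairs this was fixed in advance, since the barcodes of their libraries held different index positions. The libraries of all pairs were kept separate, and averaging each pair is given as an alternative. Nothing in the labels says which libraries came from separate animals, so each p-value measures only the spread between libraries, which may be technical.

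At P1 no layer IV cell was named in any of the 4 libraries. There were 0 layer IV cells among 3194 P1 pyramidal neurons. If cells were named 1 by 1 as independent draws, this would allow a share of up to 0.0939% of the pooled cells. In single libraries a count of 0 would allow 0.219% to 0.505%. Names went to whole clusters, however, and the authors removed small clusters after the split by age. These values are therefore no upper limits on layer IV cells at P1. The P1 libraries held 243 cells without a type. As clusters had been split by age, no P1 cell could share a cluster with layer IV cells of P7 or P21. Whether any of the 243 cells belonged to layer IV was not tested. The count of 0 is a statement about named cells, because the authors named clusters within an age.

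Layer IV cells made up a smaller share of pyramidal neurons at P21 than at P7, with no overlap between the libraries. At P21 the shares were 24.6% and 25.4% in the numbered libraries and 27.0% and 26.5% in the Pool libraries. At P7 they were 30.8% and 32.6% in the numbered libraries and 30.2% and 28.6% in the Pool libraries. The highest P21 library therefore lay below the lowest P7 library. These shares rested on 256 to 681 layer IV cells per P21 library and 255 to 332 per P7 library. Counting error alone gave exact (Clopper-Pearson) 95% intervals of 23.0% to 26.3% for the largest P21 library, with 681 of 2766 cells, and of 25.7% to 31.7% for the P7 library with fewest layer IV cells, 255 of 891. Intervals here cover counting error only.

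The share of pyramidal neurons averaged 25.9% ± 1.08 at P21 and 30.5% ± 1.64 at P7 (SD over 4 libraries per age). The difference was -4.65 percentage points, or 0.848-fold. An exact two-sided permutation test gave p = 0.0286, the smallest that 4 against 4 libraries allow, and the Benjamini-Hochberg adjusted p over 16 tests was 0.152. The difference was thus larger than the spread between libraries but did not pass the adjusted threshold of 0.05. Within series it was -6.68 points in the numbered and -2.63 points in the Pool libraries, with 2 libraries per age. The spread between libraries was close to what counting alone would give: the SD of 1.08 points at P21 stood against 1.19 from counting, and that of 1.64 at P7 against 1.51.

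**Figure D1:**
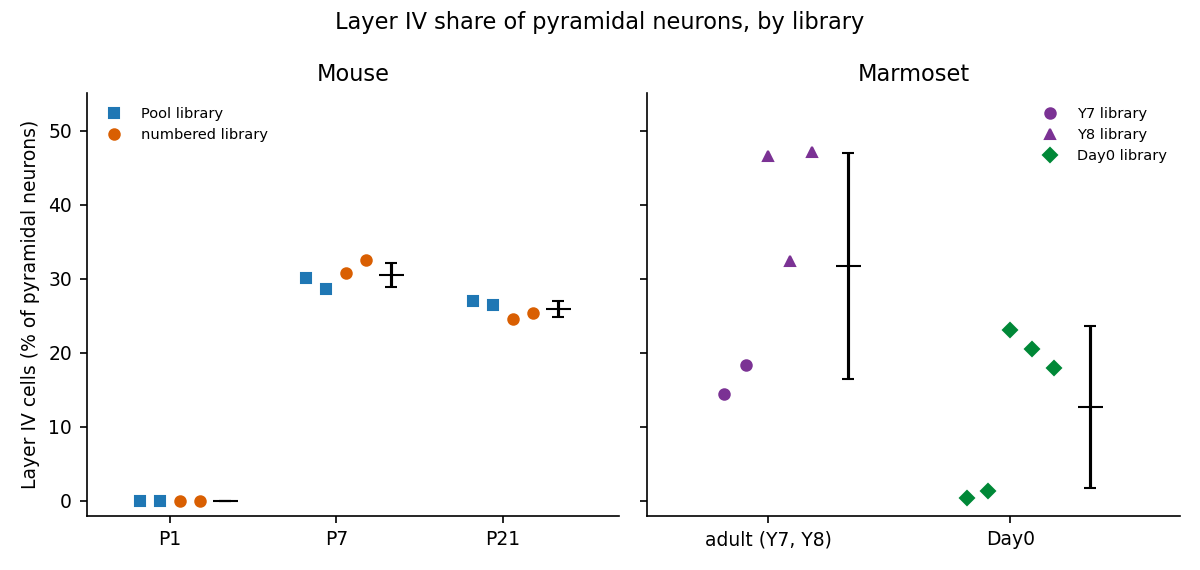
Layer IV cells as a percentage of pyramidal neurons in each library (points), with the group mean and SD (black cross and bar). Mouse ages are at left (P1, P7, P21), with squares for Pool and circles for numbered libraries, and marmoset groups at right. The 4 P21 libraries sit between 24.6% and 27.0%, all below the P7 libraries at 28.6% to 32.6%, whereas adult and Day0 marmoset libraries overlap.

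Wider denominators gave the same order in mouse. As a share of neurons, which adds the interneurons, layer IV averaged 22.5% ± 0.796 at P21 and 25.4% ± 1.14 at P7 (SD, n = 4), a difference of -2.96 points (p = 0.0286, adjusted p = 0.152, exact permutation test). As a share of all cells with a type it averaged 20.7% ± 0.274 at P21 and 23.1% ± 0.672 at P7 (SD, n = 4), a difference of -2.36 points (p = 0.0286, adjusted p = 0.152, exact permutation test). In both measures every P21 library lay below every P7 library.

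The direction of these differences depended on how cells without a type were counted. P7 held 1182 such cells against 272 at P21, and 834 of the P7 cells formed cluster 9. With unassigned cells kept in the denominator, layer IV was 19.9% of all cells at P21 and 18.6% at P7, a difference of 1.28 points (p = 0.0571, adjusted p = 0.229, exact permutation test, n = 4 each). An alternative chosen after seeing the data counted cluster 9 as corticothalamic, since few P7 cells carried that name. Of the unassigned P21 cells 0 lay in cluster 9, so this recount could only lower the P7 share. The share of pyramidal neurons was then 25.9% at P21 and 25.02% at P7, a difference of 0.866 points (p = 0.429, adjusted p = 0.686, exact permutation test, n = 4 each). What the cells of cluster 9 are was not tested.

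Set against 1 other type at a time, layer IV differed between ages relative to corticothalamic neurons and by little relative to the others. This comparison, made after seeing the data, comprised 7 tests, 4 of them in mouse, with p-values adjusted over the 7. Per 100 CPN there were 76.5 ± 3.37 layer IV cells at P21 and 79.2 ± 4.29 at P7 (SD, n = 4). The libraries overlapped, at 71.7 to 78.9 for P21 and 73.8 to 84.3 for P7, a ratio of 0.966-fold (p = 0.314, adjusted p = 0.380, exact permutation test). Per 100 ScPN there were 139 ± 12.7 at P21 and 136 ± 15.5 at P7, a ratio of 1.02-fold (p = 0.771, adjusted p = 0.771, exact permutation test, n = 4). The ScPN comparison went opposite ways in the 2 series, at -18.3 layer IV cells per 100 ScPN in the numbered and 24.9 in the Pool libraries.

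Relative to CthPN the picture was different. Per 100 CthPN the P21 libraries held 98.8 and 117 layer IV cells in the numbered and 135 and 136 in the Pool series. The P7 libraries held 351 and 451 in the numbered and 461 and 277 in the Pool series. All 4 P21 values lay below all 4 P7 values, at 122 ± 17.7 against 385 ± 87.4 (SD, n = 4), or 0.316-fold (p = 0.0286, adjusted p = 0.200, exact permutation test). With cluster 9 counted as corticothalamic, which could only lower the P7 values, the means were 122 at P21 and 101 at P7. Per 100 interneurons there were 171 ± 7.12 layer IV cells at P21 and 154 ± 17.2 at P7, a ratio of 1.11-fold in overlapping libraries (p = 0.114, adjusted p = 0.267, exact permutation test, n = 4). A p above the threshold does not show that the ratios to CPN, ScPN or interneurons were equal.

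**Figure D2:**
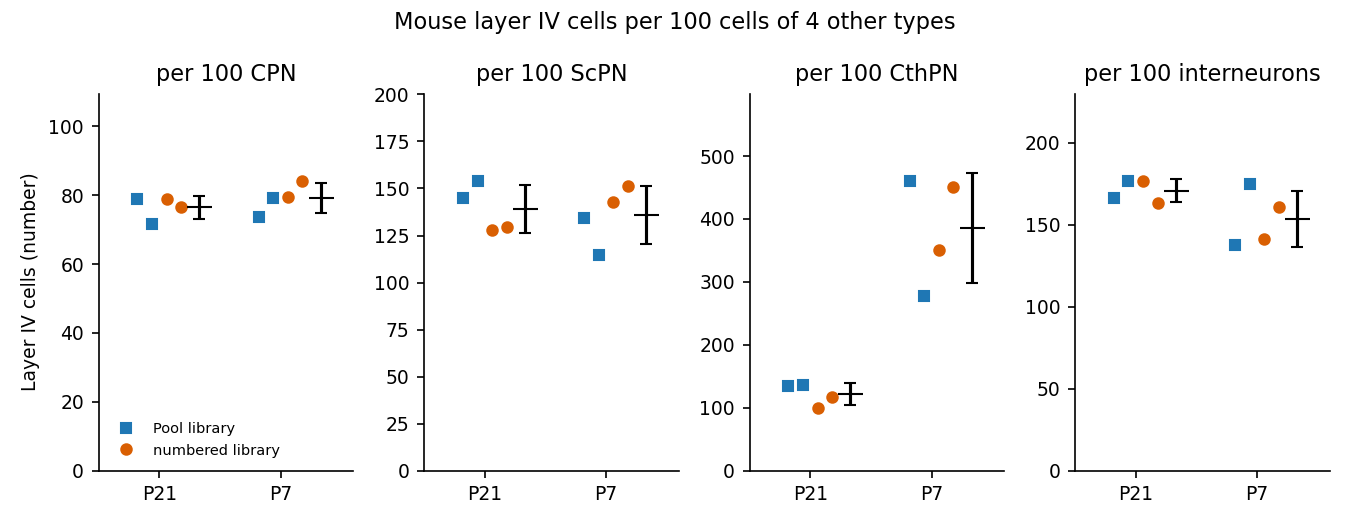
Mouse layer IV cells per 100 cells of CPN, ScPN, CthPN and interneurons (1 panel each, own vertical scale from 0), by library (points) at P21 and P7, with mean and SD (black). P21 and P7 libraries are separated in the CthPN panel, at 98.8 to 136 against 277 to 461, and overlap in the other 3 panels.

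In marmoset, layer IV cells were few in adults and uneven between newborn libraries. Among adult pyramidal neurons layer IV made up 37 of 256 cells (14.5%) and 25 of 136 (18.4%) in the Y7 libraries. In the Y8 libraries it made up 20 of 43 (46.5%), 12 of 37 (32.4%) and 16 of 34 (47.1%). At Day0 it made up 2 of 577 (0.347%), 8 of 599 (1.34%), 178 of 771 (23.1%), 147 of 716 (20.5%) and 113 of 630 (17.9%) in libraries 1 to 5. The adult and Day0 libraries overlapped, and each group fell into a higher and a lower set. The small Y8 counts left wide exact 95% intervals, 31.2% to 62.3%, 18.01% to 49.8% and 29.8% to 64.9%.

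The share of pyramidal neurons averaged 31.8% ± 15.3 in adults and 12.6% ± 10.9 at Day0 (SD, n = 5 libraries each). The difference of 19.1 points did not pass the test (p = 0.0714, adjusted p = 0.229, exact two-sided permutation test, n = 5 each). With Day0 libraries 1 and 2 left out together, an alternative added after seeing the data, it was 11.2 points, 31.8% against 20.5% (p = 0.321, adjusted p = 0.571, exact permutation test over 5 and 3 libraries). With ExNeuron left out of the denominator, layer IV made up 63.8% of the remaining pyramidal neurons in adults and 12.8% at Day0, a difference of 51.0 points (p = 0.00794, the smallest possible, adjusted p = 0.114, exact permutation test with 5 libraries each). These denominators were unlike. No adult library held cells named CPN or ScPN, so the remaining adult cells were layer IV and CthPN alone, whereas Day0 also had CPN and ScPN. With all pyramidal neurons as the denominator, the Y7 libraries alone gave 3.77 points and the Y8 libraries alone 29.4 points. With the cells of a group pooled, so that large libraries weighed more, layer IV made up 21.7% of adult and 13.6% of Day0 pyramidal neurons, a difference of 8.13 points.

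The direction also depended on the denominator in marmoset. As a share of neurons, layer IV averaged 14.8% ± 4.77 in adults and 7.06% ± 6.17 at Day0 (SD, n = 5), a difference of 7.71 points (p = 0.0714, adjusted p = 0.229, exact permutation test). As a share of all annotated cells it averaged 1.49% ± 0.658 in adults and 5.17% ± 4.56 at Day0 (SD, n = 5), a difference of -3.68 points (p = 0.167, adjusted p = 0.305, exact permutation test). Neurons of any type numbered 73 to 378 per adult library and 1108 to 1352 per Day0 library, of 1209 to 1643 and 1613 to 1814 annotated cells. Fewer layer IV cells among all cells and fewer neurons recovered therefore cannot be told apart in adults. Without Day0 libraries 1 and 2, the annotated-cell difference was -6.93 points and the groups did not overlap (p = 0.0357, the smallest possible, adjusted p = 0.143, exact permutation test over 5 and 3 libraries).

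The Day0 libraries with hardly any layer IV cells were those that held nearly all ExNeuron cells of that age. ExNeuron cells numbered 168 and 188 in Day0 libraries 1 and 2, and 0, 1 and 0 in Day0 libraries 3, 4 and 5, all in cluster 18. Counted together, layer IV and ExNeuron made up 29.5% and 32.7% of pyramidal neurons in Day0 libraries 1 and 2, and 23.1%, 20.7% and 17.9% in libraries 3, 4 and 5. The SD of the Day0 share was 6.16 points for the combined count. For layer IV alone it was 10.9, where counting error alone would give 1.34. ExNeuron was added after seeing that it stood where layer IV was missing. The smaller SD is therefore no test of what the ExNeuron cells are. CPN also differed between these sets, at 22.5% and 21.04% of pyramidal neurons in libraries 1 and 2 and 32.7%, 36.6% and 39.7% in libraries 3 to 5. ScPN took 32.1% and 31.6% in libraries 1 and 2 and 27.9%, 26.1% and 27.8% in libraries 3 to 5. CthPN lay within 14.6% to 16.6% in all 5.

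Cell type counts of Day0 libraries 1 and 2 differed from each other by no more than counting noise (chi-square of 12.0 on 11 degrees of freedom), whereas either library differed from library 3 by a chi-square of over 400 (436 and 446). Over all cells, libraries 1 and 2 also had fewer peaks per 1000 reads, with medians of 485 and 500 against 522 to 527 in libraries 3 to 5. Layer IV against all other pyramidal neurons alone gave a chi-square of 148 between libraries 1 and 3 and of 136 between libraries 2 and 3. The part of the lower peaks per 1000 reads in the layer IV counts was not tested. Whether the ExNeuron cells of libraries 1 and 2 belong with layer IV could not be examined without gene-level values.

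**Figure D3:**
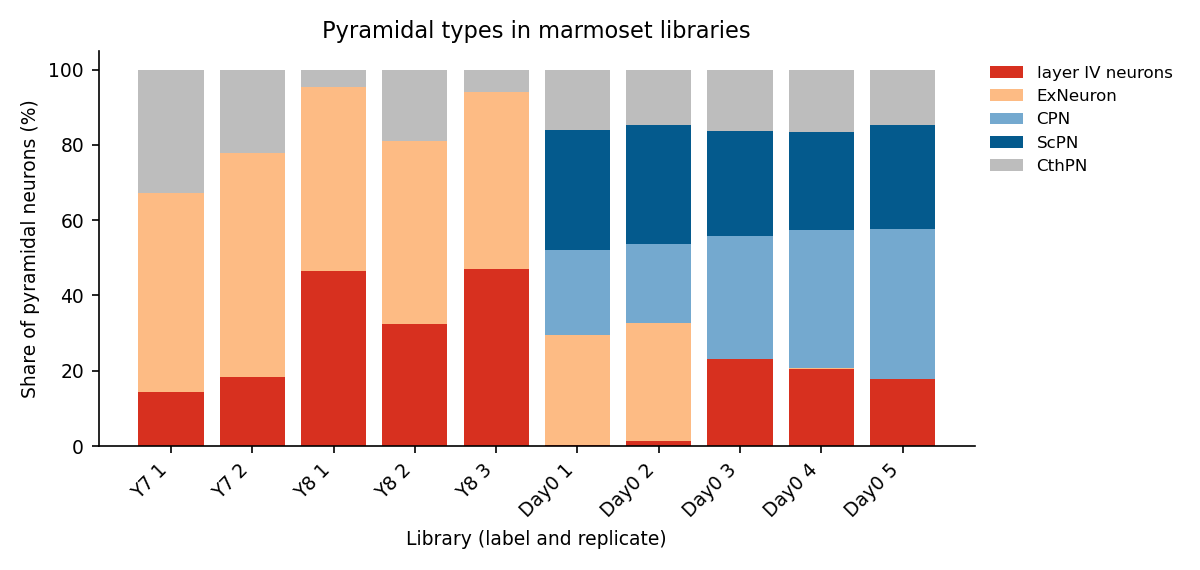
Share of each named pyramidal type (stacked colours, in % of pyramidal neurons, adding to 100) in the 10 marmoset libraries, adult libraries (Y7, Y8) at left and Day0 at right. Layer IV (red) takes 14.5% to 47.1% in adults and is nearly missing in Day0 libraries 1 and 2, where ExNeuron (orange) takes 29.1% and 31.4%.

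Adult marmoset pyramidal neurons carried only 3 names, layer IV, ExNeuron and CthPN. CPN and ScPN were named in no adult library. ExNeuron took 51.4% ± 5.03 of adult pyramidal neurons, with 47.1% to 59.6% per library, and CthPN took 16.9% ± 11.8 (SD, n = 5). Layer IV cells were the minority against CthPN in Y7 library 1, with 37 and 84 cells, and the majority in Y8 library 1, with 20 and 2 cells. Against interneurons the adult libraries were more alike, at 20.0 to 33.3 layer IV cells per 100 interneurons, and averaged 29.6 ± 5.48 in adults against 16.0 ± 14.2 at Day0 (SD, n = 5, p = 0.0873, adjusted p = 0.267, exact permutation test). Without Day0 libraries 1 and 2 the Day0 mean was 26.0, a difference of 3.51 (p = 0.393, adjusted p = 0.458, exact permutation test, n = 5 and 3).

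Per cell, mouse layer IV neurons gave somewhat more reads at P21 than at P7, in overlapping libraries. Median reads per layer IV cell were 3423 and 3464.5 in the numbered and 3734 and 3830.5 in the Pool libraries of P21. They were 3115 and 3526.5 in the numbered and 2718 and 3331 in the Pool libraries of P7. The means were 3613 ± 200 at P21 and 3173 ± 347 at P7 (SD, n = 4), a difference of 440 reads that did not pass the test (p = 0.0857, adjusted p = 0.229, exact permutation test). It amounted to 123 reads in the numbered and 758 in the Pool libraries. The number of peaks with a read moved alike, with means of 2010.5 ± 130 at P21 and 1763 ± 234 at P7 (SD, n = 4, p = 0.114, adjusted p = 0.261, exact permutation test). Since the authors sampled libraries to a similar depth, reads per cell are no absolute measure of open chromatin.

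Peaks per 1000 reads, which set the 2 counts in proportion, hardly varied between mouse layer IV libraries. The P21 medians were 553 and 556 in the numbered and 554 and 555 in the Pool libraries. The P7 medians were 560 and 559 in the numbered and 522 and 558 in the Pool libraries. The first P7 Pool library stood apart from the rest, and all its cells together had a median of 521. The means were 555 ± 1.29 at P21 and 550 ± 18.6 at P7 (SD, n = 4), a difference of 5.17 (p = 1, exact permutation test), which turned to -4.11 without that library (p = 0.0571, adjusted p = 0.190, exact permutation test, n = 4 and 3).

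Within each mouse library, layer IV cells had the lowest median reads of the 4 pyramidal types. This held in 8 of 8 libraries at P21 and P7. The ratio of the layer IV median to that of ScPN, the large layer V output neurons, was 0.704 to 0.801 at P21 and 0.777 to 0.826 at P7. To CPN it was 0.761 to 0.912 at P21 and 0.735 to 0.996 at P7, and to CthPN 0.793 to 0.971 at P21 and 0.590 to 0.782 at P7. Layer IV cells still had more reads than interneurons in all 8 libraries, with ratios of 1.102 to 1.40, and than astrocytes, with ratios of 1.83 to 2.71. These are descriptions without a test, because the types were made by clustering the same peaks.

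**Figure D4:**
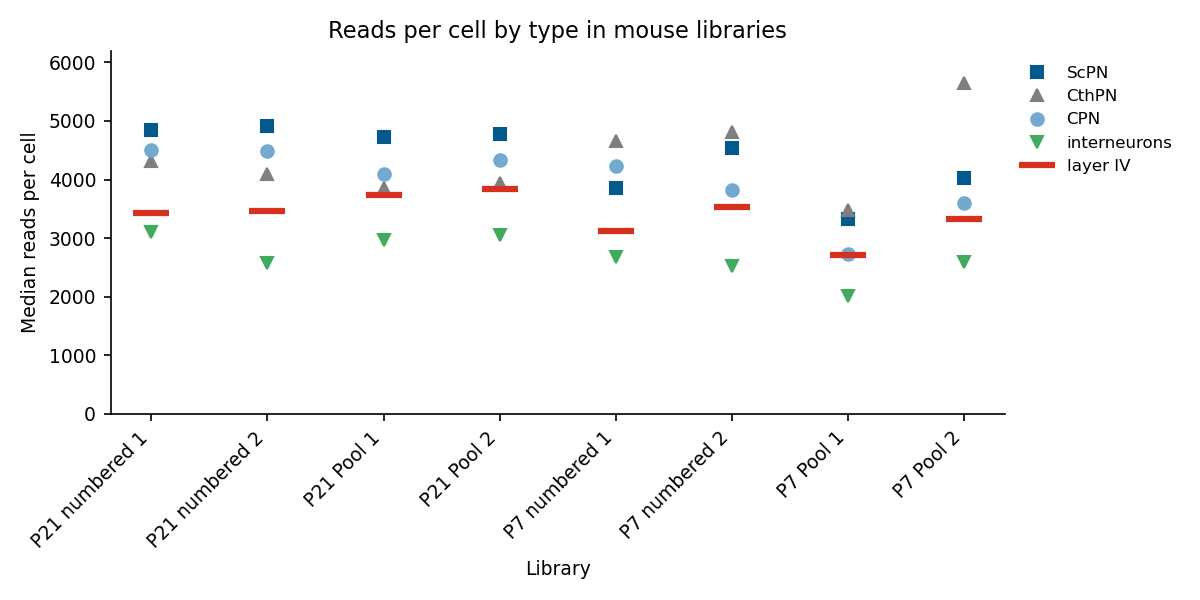
Median reads per cell in each mouse library (P21 at left, P7 at right) for layer IV (red bars) and for ScPN, CthPN, CPN and interneurons (symbols). In all 8 libraries layer IV lies below the other 3 pyramidal types and above interneurons. In the first P7 Pool library it nearly meets CPN, at 2718 against 2729.5 reads.

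Relative to all other pyramidal neurons of the same library, layer IV reads were alike at the 2 ages. The log2 ratio of medians was -0.27 ± 0.13 at P21 and -0.26 ± 0.14 at P7 (SD, n = 4), a difference of -0.02 on the log2 scale (p = 0.914, adjusted p = 0.975, exact permutation test). Against CthPN alone the log2 ratio was -0.17 at P21 and -0.54 at P7, a difference of 0.37 with no overlap between the libraries (p = 0.0286, adjusted p = 0.114, exact permutation test, n = 4). The P7 ratio to CthPN rested on 63 to 92 CthPN per library. Peaks per 1000 reads of layer IV cells stood to those of CPN, ScPN and CthPN of the same library in ratios of 0.993 to 1.02 over the 8 libraries.

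Shallow cells were more frequent among mouse layer IV cells than among the other mouse pyramidal neurons. Cells under 2000 reads made up 17.97% to 21.6% of layer IV cells at P21, against 11.8% to 14.9% of the other pyramidal neurons of those libraries. At P7 they made up 18.04% to 30.1% of layer IV cells, against 12.9% to 27.3% of the others. In each of the 8 libraries the layer IV value was the higher one. Cells over 10000 reads were less frequent among layer IV cells in 7 of 8 libraries and more frequent in the first P21 Pool library, at 6.69% against 5.74%. Layer IV cells spanned 1002 to 14886 reads at P21 and 1006 to 14782 at P7, which is nearly the whole range of reads that the tables hold. In adult marmoset libraries the order was reversed, on 12 to 37 layer IV cells each. There 13.5% and 20% (Y7) and 5%, 0% and 6.25% (Y8) of layer IV cells lay under 2000 reads. The other pyramidal neurons had 20.5% and 20.7% (Y7) and 17.4%, 12% and 22.2% (Y8). In Day0 libraries 3 to 5 layer IV was again higher, at 19.7%, 15.6% and 16.8% against 13.0%, 14.2% and 12.6%.

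In mouse, the share of layer IV among pyramidal neurons changed with the depth of the cells. When the pyramidal neurons of each library were cut into 4 equal parts by reads, layer IV made up 33.3% ± 0.814, 26.2% ± 2.26, 24.2% ± 3.02 and 19.8% ± 3.997 of the parts at P21, from fewest to most reads. At P7 the same parts held 35.6% ± 2.65, 33.8% ± 4.69, 28.2% ± 1.40 and 24.6% ± 3.07 (SD, n = 4 libraries each). The part with fewest reads had a higher share than the part with most in 8 of 8 libraries. These 2 parts held 34.1% and 17.6% in the first numbered P21 library and 38.1% and 21.5% in the second P7 Pool library, and lay closer in the first P7 Pool library, at 31.9% and 26.9%. In marmoset, where the parts held few cells, the part with fewest reads had the higher share in 1 of 5 adult libraries and in 2 of 3 Day0 libraries (3 to 5). Among cells with at least the median of 3444 reads, the share was 22.4% at P21 and 27.1% at P7, a difference of -4.71 points (p = 0.0571, adjusted p = 0.229, exact permutation test, n = 4).

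**Figure D5:**
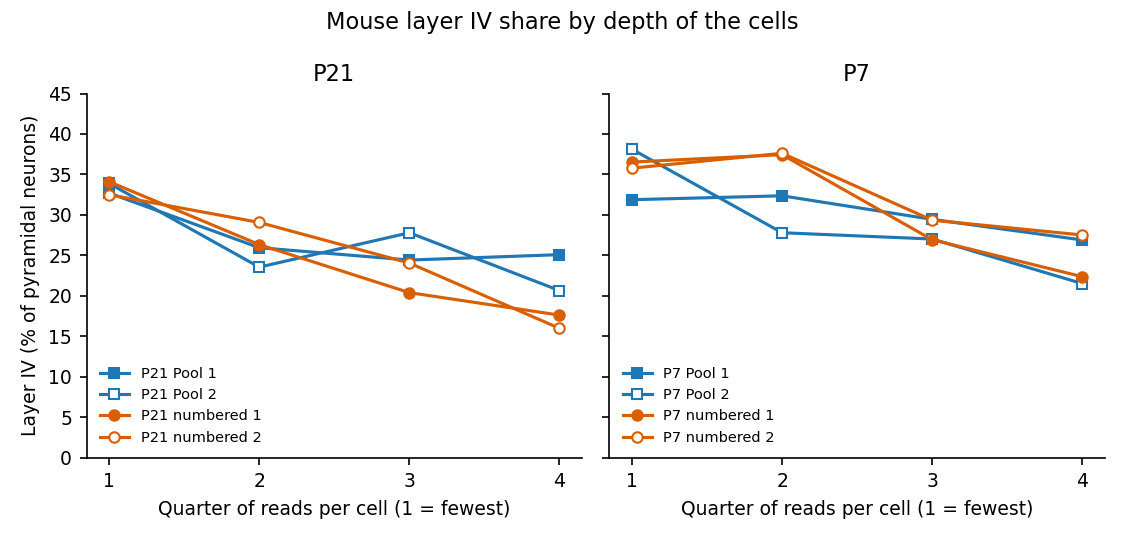
Layer IV cells as a percentage of pyramidal neurons in 4 equal parts of each mouse library, ordered by reads per cell (1 = fewest, 4 = most), for P21 (left) and P7 (right), 1 line per library. Every line is lower at its right end than at its left end, with means of 33.3% and 19.8% at the ends for P21 and 35.6% and 24.6% for P7.

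Within a mouse library, layer IV cells were spread over all index positions. Each P21 and P7 library had 8 positions of an index in its barcodes. The layer IV share of pyramidal neurons ranged over positions from 17.2% to 35.9% at P21 and from 23.0% to 36.4% at P7. The SD over the positions of a library was 2.12 to 4.86 points at P21 and 1.94 to 3.44 at P7, where counting alone would give 2.32 to 4.02 and 3.93 to 4.51. In 2 P21 libraries, numbered 2 and Pool 1, the spread over positions was above counting, at 4.40 against 3.08 and 4.86 against 3.89 points.

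In marmoset, layer IV cells carried more reads than in mouse, except in Day0 library 1, in libraries of another chemistry. The layer IV medians averaged 8063 reads over 10 marmoset and 3393 over 8 mouse libraries. Those of the other pyramidal neurons averaged 8066 and 4083.5, so the higher reads were not particular to layer IV. Median reads per adult layer IV cell were 5320 and 5877 in the Y7 and 10015, 10024 and 7694 in the Y8 libraries. At Day0 they were 7106.5, 8351 and 10279 in libraries 3 to 5, and 2097.5 and 13870.5 in libraries 1 and 2, which had 2 and 8 layer IV cells. The ages overlapped, with means of 7786 ± 2220 in adults and 8341 ± 4325 at Day0 (SD, n = 5), a difference of -555 reads (p = 0.786, adjusted p = 0.967, exact permutation test). The species were not tested against each other, since dissection and library chemistry changed with them: plates with combinatorial indexes in mouse and droplets in marmoset.

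The order of reads among pyramidal types seen in mouse was less regular in marmoset. In Day0 libraries 3 and 4 layer IV had fewer median reads than CPN, ScPN and CthPN, with ratios of 0.652 to 0.967. In Day0 library 5 it had more, with ratios of 1.01 to 1.26. In adults layer IV had more reads than ExNeuron in 4 of 5 libraries, with ratios of 1.01 to 1.71, and fewer in Y8 library 3, at 0.911. They had fewer reads than CthPN in both Y7 libraries, at 0.646 and 0.960, and the Y8 libraries held too few CthPN for a median. Adult layer IV cells had fewer reads than interneurons in both Y7 libraries (0.582 and 0.713) and more in the 3 Y8 libraries (1.31 to 1.64). These Y8 medians rested on 12 to 20 layer IV cells each.

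Layer IV peaks per 1000 reads in marmoset were 561 and 560 in the Y7, and 521, 526 and 543 in the Y8 libraries. At Day0 they were 553, 486, 550, 545 and 541 in libraries 1 to 5. The means were 542 ± 18.7 in adults and 535 ± 27.9 at Day0 (SD, n = 5), a difference of 7.09 (p = 0.690, adjusted p = 0.921, exact permutation test). In Day0 libraries 3 to 5 layer IV had more peaks per 1000 reads than CPN, CthPN, interneurons and astrocytes of the same library, with ratios of 1.01 to 1.07, and more than ScPN in 2 of the 3, with ratios of 0.993 to 1.01. Among layer IV cells with 2000 to 6000 reads, present in 4 adult and 4 Day0 libraries, the value was 573 in adults and 555 at Day0, a difference of 18.1 (p = 0.0286, the smallest possible, adjusted p = 0.114, exact permutation test, n = 4 each). No minimum number of cells per library was set here. Of the 2 layer IV cells of Day0 library 1, at 1445 and 2750 reads, only the latter fell in this range.

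Set side by side without a test, layer IV took 25.9% ± 1.08 of pyramidal neurons in P21 mice and 30.5% ± 1.64 in P7 mice (n = 4 each). It took 31.8% ± 15.3 in adult and 12.6% ± 10.9 in newborn marmosets (SD, n = 5 each), or 20.5% ± 2.58 in Day0 libraries 3 to 5. In mouse the layer IV shares of the libraries of an age differed by about as much as counting error. In marmoset the shares differed by more, with an SD of 15.3 points in adults against 5.56 from counting. Counts of all mouse types were less alike, with chi-squares of 39.9 to 156 on 10 degrees of freedom between numbered and Pool libraries of P21.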

How the data were processed

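The deposited tables held 1 cell per line with its library, age, cluster, annotated type and 2 counts, reads and peaks with a read, which the authors left without normalization. The authors aligned reads with Bowtie2, removed duplicates with Picard, sampled libraries to a similar depth per cell, called peaks with MACS2 (build mm10 for mouse, per the submitters' processing notes), kept cells within limits on reads and peaks, clustered them and named clusters from gene scores. The sources used here do not say whether doublets were removed. Libraries held 2186788 to 15904940 reads.

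Here cells were counted per library and type, with Python 3.11.15, pandas 2.3.3 and scipy 1.17.1. Mouse cells without a type were left out of shares. Groups were compared over libraries by exact two-sided permutation tests, adjusted over 16 tests. Tests were checked on simulated data. No gene was tested or named by its values. Members and measures were chosen with earlier results of these data known. Alternatives covered denominators, depth limits, series, left-out libraries and the replicate block. Counting cluster 9 as CthPN, leaving out Day0 libraries 1 and 2, adding ExNeuron, averaging agreeing libraries and ratios to single types were chosen after seeing the data.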

Additional observations from a re-analysis of the deposited data

Results flagged for a closer look

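In 3 places 1 library of a group stood far from the others of that group, by the gap to its nearest neighbour as a part of the range of the group. Chance gives this in about 1 in 20 groups for each measure. More than 1 measure was screened, and the number of such places was not set against chance. The second numbered P7 library had the highest layer IV share of annotated cells, 24.1%, where the other 3 P7 libraries had 22.7% to 22.8%. The first P7 Pool library had the lowest layer IV peaks per 1000 reads, 522, where the other 3 had 558 to 560. Its cells of all types had a median of 521. Day0 library 2 had the lowest layer IV peaks per 1000 reads of the 5 newborn libraries, 486, a median over 8 cells with a median of 13870.5 reads.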

How the results depend on the processing

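No group difference passed an adjusted p of 0.05 under any alternative, which says little given the few libraries. The smallest possible p in mouse, 0.0286 before adjustment, could pass only if many of the 16 tests were as low. With 1 mouse library left out the smallest possible p was 0.0571, and with 1 series alone 0.333 (exact permutation tests), so these could not pass. With 2 libraries per age, the numbered and Pool libraries gave P21 minus P7 differences of -6.68 and -2.63 points in the share of pyramidal neurons, -4.39 and -1.52 in that of neurons, 123 and 758 median reads and 33.8 and 460.5 median peaks. Counting cluster 9 as corticothalamic, which could only lower the P7 shares, turned the share differences to 0.866 (pyramidal neurons), 0.987 (neurons) and 0.945 points (annotated cells). Keeping unassigned cells turned the last to 1.28. Naming unassigned cells by their cluster left the share differences at -4.56, -2.65 and -2.19 points. Layer IV reads relative to CthPN alone differed by 0.37 (log2). Leaving out 1 library at a time, the share of pyramidal neurons differed by -5.29 to -3.98 points in mouse and by 15.3 to 23.4 in marmoset. Peaks per 1000 reads ranged from -4.11 to 8.77 in mouse and from -5.23 to 12.4 in marmoset, and marmoset median reads from -2116 to 827.5. In marmoset the share of pyramidal neurons differed by 3.77 points with Y7 alone. Libraries with the same number did not deviate together (correlations of -0.77 to 0.19 in mouse and -0.06 to 0.33 in marmoset). With the replicate block, the mouse pyramidal share differed by -4.65 (p = 0.125, the smallest possible, exact permutation test, n = 4 pairs). For Y8 and Day0 numbers 1 to 3 the block gave 33.7 points of pyramidal neurons and 13.5 of neurons (p = 0.25 each, the smallest possible, exact permutation test, n = 3 pairs). Averaging in pairs the libraries whose type counts agreed within sampling noise gave -4.56 points in mouse and 16.2 in marmoset. With layer IV and ExNeuron counted together, adult minus Day0 was 58.4 points of pyramidal neurons (83.1% against 24.8%; p = 0.00794, adjusted p = 0.114, exact permutation test, n = 5). The other pyramidal neurons were then CthPN alone in adults, but CPN, ScPN and CthPN at Day0, so the names in use differed between the ages. Adult marmoset shares are limited by 12 to 37 layer IV cells per library.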
